A study of Homo sapiens with 4 samples.

Results

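Mitochondrial carriers of the SLC25 family, the transporters of the inner mitochondrial membrane, were compared between Hs683 cells given miR-20a and Hs683 cells given a control microRNA. The family was taken as every probe set whose single gene symbol, after updating to the current name, was SLC25A followed by a number, or UCP1, UCP2 or UCP3. This gave 47 genes of the 17716 genes named on the arrays, each read by 1 probe set, a group of short probes against the same transcript. RefSeq lists 51 protein-coding genes by these names; those outside the 47 were not analysed here. Of the 47 genes, 37 were tested and 10 were left out because they were among the dimmest 30% of all genes by their mean over the arrays. Those 10 were SLC25A21, SLC25A23, SLC25A27, SLC25A30, SLC25A31, SLC25A45, SLC25A48, SLC25A53, UCP1 and UCP3.

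Hs683 is a cell line established from a human glioma. All 4 arrays came from Hs683 cells in which QK, now named QKI, whose protein binds RNA and acts in glial development, had been knocked down. The control group held 2 arrays of such cells transduced with miR-NT, a microRNA of scrambled sequence without a target. The other group held 2 arrays of such cells transduced with miR-20a. The labels do not say how QKI was knocked down, how long after transduction RNA was taken, whether the cells were a clone, or whether replicates were separate cultures, so p-values cover the spread among these arrays alone, and that spread may be technical. The values are log2 expression per probe set, so that a difference of 1 is a doubling, and they come from whole cultures, where fewer cells of a type and less RNA per cell cannot be told apart.

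SLC25 proteins are built from repeats of a transmembrane helix pair and mostly exchange a solute of the cytosol for a solute of the mitochondrial matrix. They move ADP and ATP, phosphate, carboxylates, amino acids, cofactors, iron and glutathione, and uncoupling proteins of the family let protons or small metabolites cross the membrane. Proliferating glial tumour cells are known to draw on citrate export, glutamine-derived glutamate and cytosolic aspartate, all of which pass through such carriers. MicroRNAs bind target transcripts mainly through the seed, bases 2 to 8 from the 5′ end. The label does not say which arm of the miR-20a hairpin was meant. The 5p arm, the known guide strand, is shown beside miR-17-5p, which shares its seed (in capitals, sequences from RefSeq, GRCh38.p14).

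hsa-miR-20a-5p: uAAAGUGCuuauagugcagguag
hsa-miR-17-5p: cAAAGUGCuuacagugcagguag

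Array medians over all probe sets lay between 6.43 and 6.45. QKI stood at 8.14 and 7.92 on the control arrays and at 7.52 and 7.08 on those of miR-20a; arrays of cells without the knockdown were not analysed here. The vimentin gene VIM, a marker of mesenchymal and glial cells in culture, measured 14.02 to 14.32. Of 15 measured glial and neural markers 6 were dim, among them GFAP, S100B, OLIG1, OLIG2 and NES, and 9 were tested. Of these 6 were above 0, with a median of 0.21. At an unadjusted limma p under 0.05, 3 were higher, PDGFRA (0.37), CSPG4 (0.36) and RBFOX3 (0.32), beside 5.82% of all genes. Their means of 5.77, 5.97 and 5.63 lay near the dimmest mean kept in the test, 5.46. The bright VIM (−0.19) and TUBB3 (−0.32) were lower without overlap of the groups, as were 31.1% of all genes. The list's summed level, as log2, was 14.78 and 14.73 on the control arrays and 14.66 and 14.43 on those of miR-20a. Of 8 epithelial and endothelial markers 5 were dim, among them EPCAM, CDH1 and CDH5, while the keratin genes KRT18 and KRT8 had means of 12.65 and 8.02, and PECAM1 of endothelium, at 0.30, was higher at that unadjusted p; their summed level was 12.81 and 12.70 on the control arrays and 12.83 and 12.64 on those of miR-20a. Of 7 immune markers 3 were dim, among them PTPRC of leukocytes, at 4.42 and 4.18 on the control arrays and at 4.14 and 3.98 on those of miR-20a. The 4 tested ones all had differences above 0, at most 0.31, where 53.8% of all genes were below 0. Their list's summed level, as log2, was 9.07 and 9.09 on the control arrays and 9.20 and 9.34 on those of miR-20a. The part of these marker lists in the carriers' values was not tested. The control probe set at the 5′ end of ACTB, commonly used to judge RNA and labelling quality, gave values of 12.78 and 12.66 under miR-NT and of 11.59 and 10.43 under miR-20a. It was thus lowest on miR-20a replicate 2, and its difference between the groups has the same sign and order of arrays as that of several carriers described here. The control probe set at the 5′ end of GAPDH had the same order, at 13.89 and 13.81 under miR-NT and 13.17 and 12.30 under miR-20a.

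No carrier passed the test over all genes. In limma, with Benjamini-Hochberg adjustment over 12401 genes, 0 of the 37 tested carriers had an adjusted p under 0.05, where 1 of all genes (0.00806%) did. The smallest adjusted p of a carrier was 0.0949, that of UCP2. At an unadjusted limma p under 0.05, 7 of 37 carriers (18.9%) were lower with miR-20a and 2 (5.41%) were higher, beside 13.2% and 5.82% of all genes. The lowest miR-NT array exceeded the highest miR-20a array for 15 carriers (40.5%), and the reverse held for 9 (24.3%), beside 31.1% and 25.1% of all genes. Differences were below 0 in 21 of 37 carriers (56.8%), beside 53.8% of all genes, and the median log2 fold change was −0.04, beside −0.02 over all genes. After quantile normalization 16 of 37 carriers were below 0, beside 45.1% of all genes. As a family the carriers therefore stood near the background in these counts, and the values below describe how single carriers and substrate groups spread around it. When miR-20a replicate 1 was left out, 9 carriers passed, and when miR-20a replicate 2 was left out, 1 passed, UCP2. The 9 were SLC25A1, SLC25A11, SLC25A16, SLC25A28, SLC25A37, SLC25A39 and UCP2, lower with miR-20a, and SLC25A13 and SLC25A36, higher. In those fits 1869 and 260 of all genes passed, and the spread of the miR-20a group is taken from the miR-NT arrays.

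**Figure D1:**
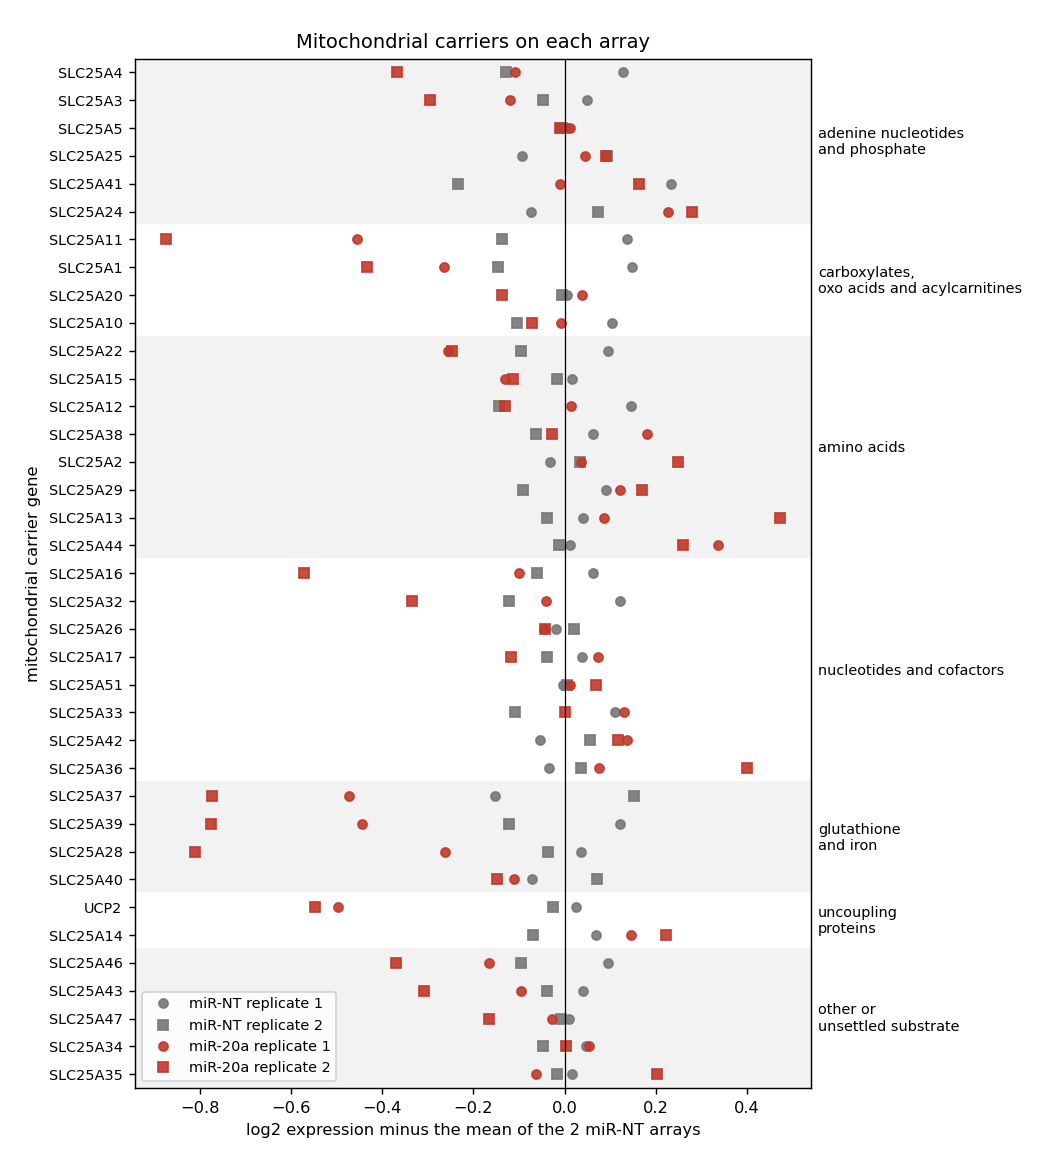
Each row is a tested carrier and each point an array, as the log2 value minus the mean of the 2 miR-NT arrays (grey, miR-NT; red, miR-20a; circles, replicate 1; squares, replicate 2), with carriers grouped by carried substrate. Both red points lie left of both grey points for 15 of 37 carriers and right of them for 9, beside 31.1% and 25.1% of all genes. Among the 15 are all 4 glutathione and iron carriers, UCP2, SLC25A11 and SLC25A1, and among the 9 is SLC25A44.

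Carriers of glutathione and iron had the lowest median of the substrate groups, except with the ACTB 5′ control as a covariate, where it was −0.10 and that of the uncoupling proteins −0.17. All 4 measured members were tested, all 4 were below 0 without overlap of the groups, and their median log2 fold change was −0.57; 3 of 4 had an unadjusted limma p under 0.05, and none passed over all genes. Of all genes, 53.8% were below 0, 31.1% were lower without overlap and 13.2% were lower at that unadjusted p. The group joins carriers of iron with carriers of glutathione, and it was drawn up with earlier results of these data known. Its counts are therefore a description and no test. Iron brought in by the mitoferrins is built into heme and iron-sulfur clusters inside the mitochondrion, and glutathione keeps thiols reduced there.

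SLC25A37, mitoferrin-1, read 8.11 and 8.42 on the miR-NT arrays and 7.79 and 7.49 on the miR-20a arrays. The lowest control array stayed above the highest miR-20a array, and the log2 fold change of −0.62 (SE 0.15) equals a 1.54-fold lower value (limma adjusted p = 0.119). SLC25A28, mitoferrin-2, its close relative, stood at 7.93 and 7.85 on the control arrays and at 7.63 and 7.08 on those of miR-20a. Most of that difference lay on miR-20a replicate 2, and the log2 fold change of −0.54 (SE 0.17, limma adjusted p = 0.185) was −0.26 without that array and −0.81 without replicate 1. The within-array difference of the 2 mitoferrins, SLC25A28 minus SLC25A37, was −0.18 and −0.56 on the miR-NT arrays and −0.16 and −0.41 on the miR-20a arrays, so the groups overlapped (exact permutation test, two-sided, p = 0.667).

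SLC25A39, which imports glutathione into the matrix, gave values of 9.89 and 9.64 under miR-NT and of 9.32 and 8.99 under miR-20a. The groups were apart, with a log2 fold change of −0.61 (SE 0.14) that equals a 1.53-fold lower value (limma adjusted p = 0.119). SLC25A40, its paralog with the same known role, read 6.66 and 6.80 on the miR-NT arrays and 6.62 and 6.58 on the miR-20a arrays, a smaller difference of −0.13 (SE 0.10, limma adjusted p = 0.476). Within each array SLC25A39 minus SLC25A40 was 3.22 and 2.84 on the miR-NT arrays and 2.70 and 2.41 on the miR-20a arrays. The groups did not overlap in this contrast, and the exact permutation test gave p = 0.333, the smallest that 2 arrays against 2 allow.

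Carriers of carboxylates, oxo acids and acylcarnitines had all 4 tested members below 0, beside 53.8% of all genes. The group's median was −0.20, with values from −0.66 to −0.04. SLC25A11, the oxoglutarate carrier of the malate-aspartate shuttle, had the lowest log2 fold change of the whole family. It stood at 9.95 and 9.68 on the control arrays and at 9.36 and 8.94 on those of miR-20a, −0.66 (SE 0.16) or 1.59-fold lower (limma adjusted p = 0.124), and ranked 237 from the lowest among 12401 genes. SLC25A1, the citrate carrier that supplies cytosolic acetyl-CoA for lipid synthesis, gave values of 10.11 and 9.81 under miR-NT and of 9.69 and 9.52 under miR-20a. Its miR-20a arrays were the lower ones, at −0.35 (SE 0.13, limma adjusted p = 0.22), or −0.20 without miR-NT replicate 1.

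The other 2 tested members of that group lay close to 0. SLC25A10, the dicarboxylate carrier, read 8.69 and 8.48 on the miR-NT arrays and 8.58 and 8.51 on the miR-20a arrays (−0.04, SE 0.11, limma adjusted p = 0.831). SLC25A20, which exchanges carnitine for acylcarnitines on the way to fatty acid oxidation, stood at 8.43 and 8.42 on the control arrays and at 8.47 and 8.29 on those of miR-20a (−0.05, SE 0.10, limma adjusted p = 0.784). For both, the groups overlapped. The within-array difference SLC25A11 minus SLC25A10 was 1.26 and 1.19 on the miR-NT arrays and 0.78 and 0.43 on the miR-20a arrays, without overlap (exact permutation test, two-sided, p = 0.333). SLC25A21, which carries oxoadipate and oxoglutarate, was dim, at 3.51 and 3.72 on the miR-NT arrays and 3.99 and 3.76 on the miR-20a arrays. Its difference went the other way, at 0.26 without overlap, and with it the group's median was −0.049.

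UCP2 was the carrier with the smallest p. It is the widely expressed uncoupling protein, known to export small carboxylates and linked to limiting mitochondrial superoxide. It gave values of 8.50 and 8.45 under miR-NT and of 7.98 and 7.92 under miR-20a, and in both groups the 2 arrays lay within 0.06 of each other (SD 0.04 each, n = 2). This gave a log2 fold change of −0.52 (SE 0.10), a 1.44-fold lower value (limma adjusted p = 0.0949), and UCP2 ranked 96 among 12401 genes by p. The other tested member of the uncoupling group was above 0: SLC25A14, a relative known from brain, read 8.97 and 8.83 on the miR-NT arrays and 9.04 and 9.12 on the miR-20a arrays (0.18, SE 0.10, limma adjusted p = 0.35), or 0.11 without miR-NT replicate 2. UCP1, the thermogenic protein of brown fat, measured 4.64 to 5.01 and UCP3, that of skeletal muscle, had a mean of 5.11, both dim. SLC25A30 (5.01 to 5.57) and SLC25A27 were dim as well, SLC25A27 at 4.37 and 4.40 on the miR-NT arrays and 4.67 and 4.90 on the miR-20a arrays. With the 4 dim members the group's median was 0.17, so the tested median of −0.17 over 2 genes describes UCP2 and SLC25A14 only.

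**Figure D2:**
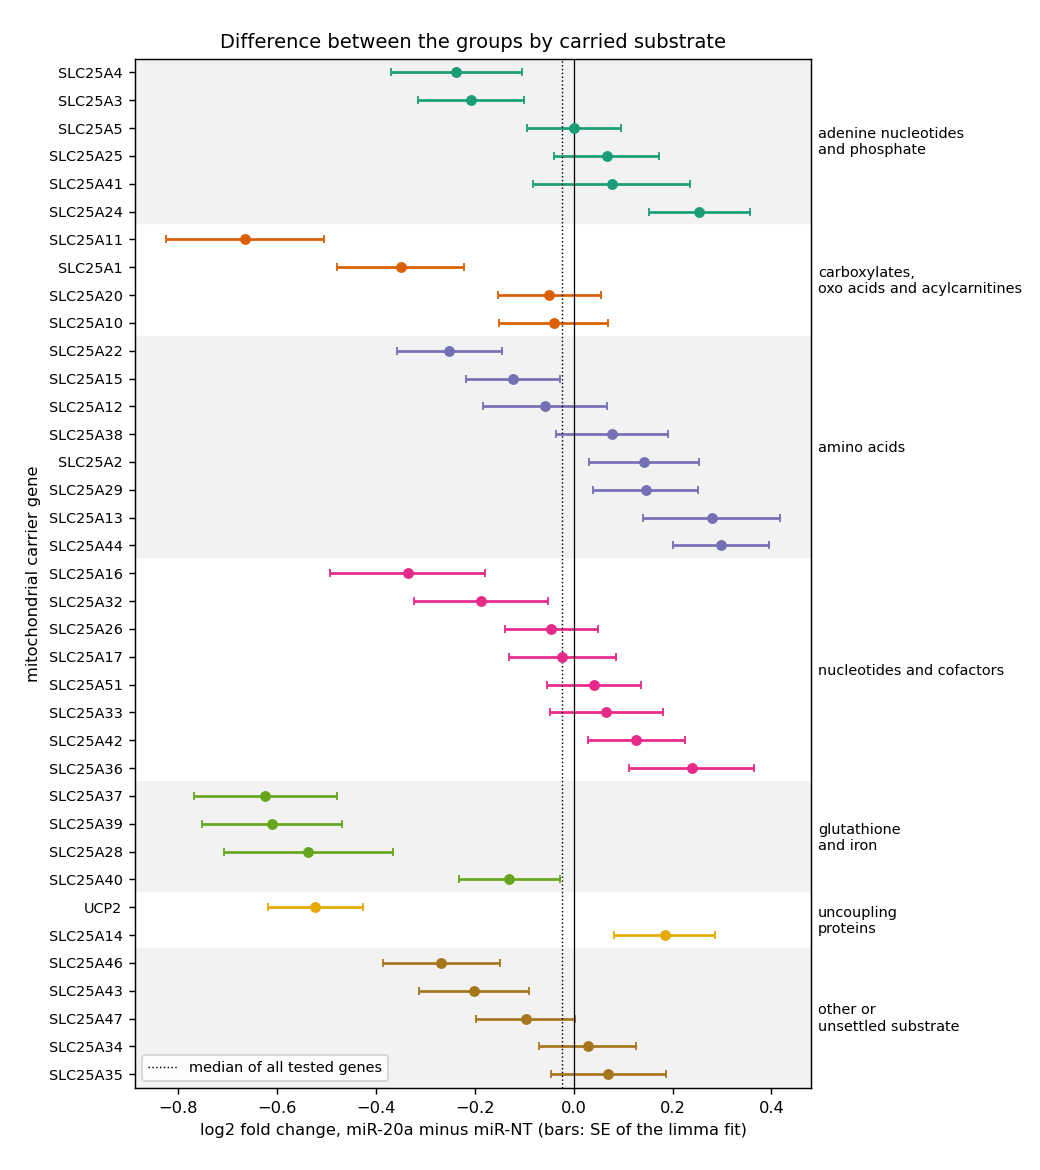
Points give the log2 fold change of each tested carrier, miR-20a minus miR-NT, with bars for the SE of the limma fit (2 arrays a group) and colours for the carried substrate; the dotted line is the median of all tested genes at −0.02. Values range from −0.66 for SLC25A11 to 0.30 for SLC25A44, and the 3 lowest glutathione and iron carriers sit between −0.62 and −0.54.

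Of the amino acid carriers, 5 of 8 tested members were above 0, with a median of 0.11; 1 was lower and 1 higher at an unadjusted limma p under 0.05, beside 13.2% and 5.82% of all genes, which is near the background. SLC25A44, which takes branched-chain amino acids into mitochondria, had the highest log2 fold change of the tested family. It stood at 9.06 and 9.04 on the control arrays and at 9.39 and 9.31 on those of miR-20a, a difference of 0.30 (SE 0.10) or 1.23-fold higher (limma adjusted p = 0.19). Neither of its groups spread by more than 0.08. SLC25A22, a glutamate carrier, was the lowest of the group, at 8.72 and 8.53 on the miR-NT arrays and 8.37 and 8.38 on the miR-20a arrays (−0.25, SE 0.11, limma adjusted p = 0.26), or −0.16 without miR-NT replicate 1.

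The aspartate-glutamate carriers work with SLC25A11 in the malate-aspartate shuttle, and neither lay below its controls on both arrays. SLC25A12, the isoform of brain and muscle, gave values of 8.70 and 8.41 under miR-NT and of 8.57 and 8.42 under miR-20a, with the groups overlapping (−0.06, SE 0.13, limma adjusted p = 0.79). SLC25A13, the liver isoform, read 5.69 and 5.61 on the miR-NT arrays and 5.73 and 6.12 on the miR-20a arrays (0.28, SE 0.14, limma adjusted p = 0.31). Its mean of 5.79 lay near the dimmest mean kept in the test, 5.46. Its higher value rests on miR-20a replicate 2, without which the difference was 0.09; it was 0.47 without replicate 1. The remaining members were SLC25A2 (0.14) and SLC25A15 (−0.12), which carry ornithine, SLC25A29 for basic amino acids (0.15) and SLC25A38 for glycine (0.08), with limma adjusted p from 0.447 to 0.693.

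Carriers of adenine nucleotides and phosphate, which feed ATP synthase and export its product, gave no common direction: 2 of 6 tested members were below 0 and 4 above, with a median of 0.03. SLC25A5, the ADP/ATP carrier of dividing cells, stood at 13.46 and 13.45 on the control arrays and at 13.47 and 13.44 on those of miR-20a (0.0007, SE 0.09, limma adjusted p = 0.997). Its 4 arrays lay within 0.03 of each other. SLC25A4, the ADP/ATP carrier of heart and muscle, gave values of 8.68 and 8.43 under miR-NT and of 8.45 and 8.19 under miR-20a, and its groups overlapped (−0.24, SE 0.13, limma adjusted p = 0.351). Each array moved this value by over 1.5 times, between −0.37 without miR-20a replicate 1 and −0.11 without replicate 2. SLC25A4 minus SLC25A5 was −4.78 and −5.02 on the miR-NT arrays and −5.02 and −5.25 on the miR-20a arrays (exact permutation test, two-sided, p = 0.667). In all, 8 such within-array contrasts were computed, each chosen after values were seen. The groups did not overlap in 5 of them, 4 lower and 1 higher with miR-20a, and overlapped in 3. Of all genes taken singly, 31.1% were lower and 25.1% higher without overlap. For the 5, the exact two-sided permutation p of 0.333 is the smallest that 2 arrays against 2 allow, and for the 3 it was 0.667. Adjusted by Benjamini-Hochberg over the 8 contrasts, these p-values became 0.533 and 0.667. Of those not described with their genes, SLC25A11 minus SLC25A1 (−0.32) and UCP2 minus SLC25A14 (−0.71) were lower on the miR-20a arrays and SLC25A44 minus SLC25A29 (0.15) higher, without overlap, and SLC25A12 minus SLC25A13 (−0.34) overlapped.

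SLC25A3, the phosphate carrier, read 13.22 and 13.12 on the miR-NT arrays and 13.05 and 12.87 on the miR-20a arrays. Its miR-20a arrays were the lower ones, by 0.21 on average (log2 fold change −0.21, SE 0.11, limma adjusted p = 0.322), or −0.12 without miR-20a replicate 2. SLC25A24, a calcium-regulated carrier of ATP-Mg and phosphate, was higher on both miR-20a arrays, at 6.31 and 6.46 on the miR-NT arrays and 6.61 and 6.66 on the miR-20a arrays (0.25, SE 0.10, limma adjusted p = 0.245). Its relatives SLC25A25 (0.07) and SLC25A41 (0.08) overlapped between the groups. SLC25A23 (4.43 to 4.89) and SLC25A31 (3.45 to 3.53), the ADP/ATP carrier of testis, were dim.

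Carriers of nucleotides and cofactors were split evenly, 4 below 0 and 4 above, around a median of 0.01. SLC25A16, linked to the supply of coenzyme A, stood at 6.84 and 6.72 on the control arrays and at 6.68 and 6.21 on those of miR-20a (−0.34, SE 0.16, limma adjusted p = 0.29). This value was −0.10 without miR-20a replicate 2 and −0.57 without replicate 1, so replicate 2 carried most of it. SLC25A32, which carries folate and FAD, gave values of 10.17 and 9.93 under miR-NT and of 10.01 and 9.71 under miR-20a, with overlap (−0.19, SE 0.14, limma adjusted p = 0.447). It was −0.04 without miR-20a replicate 2, −0.07 without miR-NT replicate 1, and, with the other array of each group dropped, −0.33 (miR-20a replicate 1) and −0.31 (miR-NT replicate 2). SLC25A36, a pyrimidine nucleotide carrier, read 6.55 and 6.62 on the miR-NT arrays and 6.66 and 6.99 on the miR-20a arrays (0.24, SE 0.13, limma adjusted p = 0.334). This difference was 0.08 without miR-20a replicate 2 and 0.40 without replicate 1. Its paralog SLC25A33 was at 0.07, the coenzyme A carrier SLC25A42 at 0.13, the NAD carrier SLC25A51 at 0.04, the S-adenosylmethionine carrier SLC25A26 at −0.04 and the peroxisomal SLC25A17 at −0.02.

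Among carriers with another or no settled substrate, 3 of 5 tested members were below 0 and the median was −0.10. SLC25A46, an outer-membrane protein that acts in mitochondrial fission and lipid transfer, stood at 9.89 and 9.70 on the control arrays and at 9.63 and 9.43 on those of miR-20a (−0.27, SE 0.12, limma adjusted p = 0.272), or −0.17 without either miR-NT replicate 1 or miR-20a replicate 2. SLC25A43 gave values of 8.15 and 8.07 under miR-NT and of 8.02 and 7.80 under miR-20a (−0.20, SE 0.11, limma adjusted p = 0.345), or −0.09 without miR-20a replicate 2 and −0.31 without replicate 1. In both, the miR-20a arrays were the lower ones. SLC25A47, a carrier known from liver, read 5.52 and 5.51 on the miR-NT arrays and 5.49 and 5.35 on the miR-20a arrays, just above the dimmest mean kept in the test, 5.46 (−0.10, SE 0.10, limma adjusted p = 0.583); it was −0.03 without miR-20a replicate 2 and −0.17 without replicate 1. SLC25A34 (0.03) and SLC25A35 (0.07) overlapped between the groups, and SLC25A45, SLC25A48 and SLC25A53 were dim, between 3.65 and 5.41 on the 4 arrays.

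The carriers with large differences between the groups also differed within the miR-20a pair, with exceptions. Replicate 2 lay below replicate 1 in 24 of 37 carriers (64.9%), beside 58.9% of all genes. This within-pair difference was −0.42 for SLC25A11, −0.33 for SLC25A39, −0.30 for SLC25A37 and −0.55 for SLC25A28. In each of these the lower array was replicate 2, which had less ACTB 5′ signal, as for 58.9% of all genes. A part of RNA or labelling quality in this was not tested. The difference within the miR-20a pair was −0.05 for UCP2 and −0.08 for SLC25A44, and 0.01 for SLC25A22. Within the miR-NT pair, replicate 2 lay below replicate 1 in 28 of 37 carriers, beside 8246 of 12401 genes. There the difference was −0.27 for SLC25A11, −0.24 for SLC25A39, 0.30 for SLC25A37 and −0.07 for SLC25A28. Across the 37 carriers the difference within the miR-20a pair and the log2 fold change correlated with Pearson's r = 0.742 and Spearman's rho = 0.745. Both hold the same miR-20a arrays, and carriers are not independent replicates, so this is a description. The same correlation was not computed over all genes, so it is not shown to be particular to carriers.

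**Figure D3:**
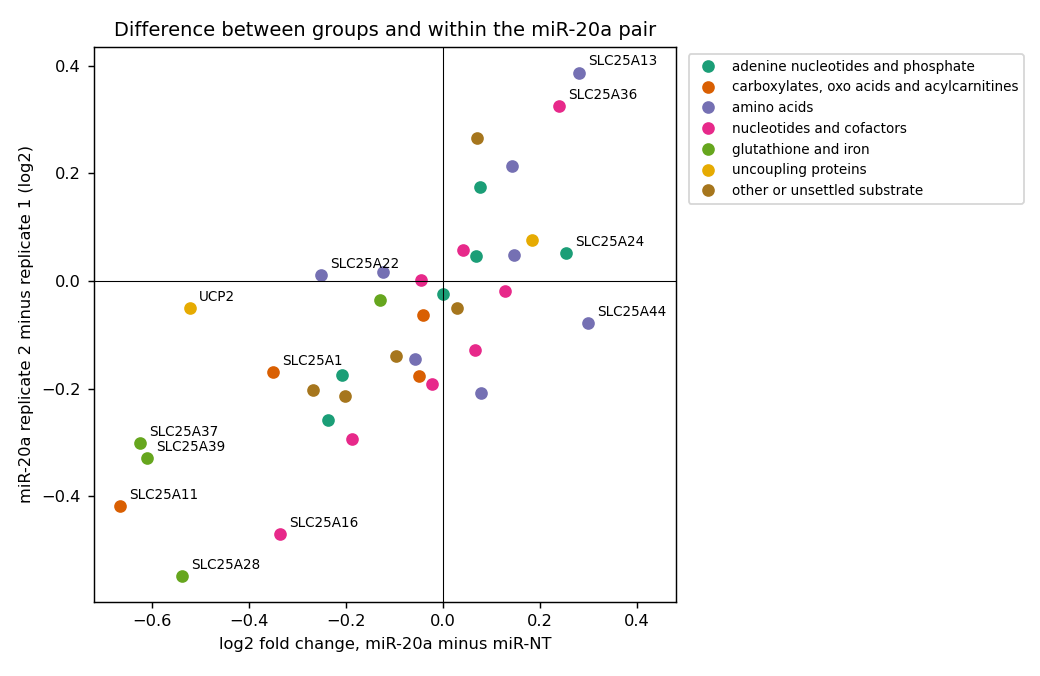
Each point is a tested carrier, with the log2 fold change between the groups on the x axis and miR-20a replicate 2 minus replicate 1 (log2) on the y axis, coloured by substrate. SLC25A11, SLC25A39, SLC25A37 and SLC25A28 lie low on both axes, whereas UCP2 at −0.52 on the x axis and SLC25A44 at 0.30 lie near 0 on the y axis.

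When the ACTB 5′ control was added as a covariate, in a fit that leaves 1 residual degree of freedom, no carrier passed and each value had an SE of 0.25. In that fit UCP2 was at −0.44 and SLC25A44 at 0.42 (limma adjusted p = 0.824 and 0.853). SLC25A37 was at −0.22, SLC25A39 at −0.09, SLC25A1 at −0.06 and SLC25A11 at −0.01, and SLC25A28 turned to 0.28. The median of the glutathione and iron group was −0.10 and that of the uncoupling proteins −0.17 there, while that of all genes was 0.05. The values of UCP2 and SLC25A44 were thus close to those without the covariate. Those of SLC25A11 and SLC25A39 were near 0, with an SE too wide to tell these carriers apart. Within the groups the control differed mainly between the miR-20a arrays (11.59 and 10.43, beside 12.78 and 12.66 under miR-NT). The covariate's slope for each carrier therefore rests mostly on its difference within the miR-20a pair. This fit largely restates that difference and is no separate check of it.

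**Figure D4:**
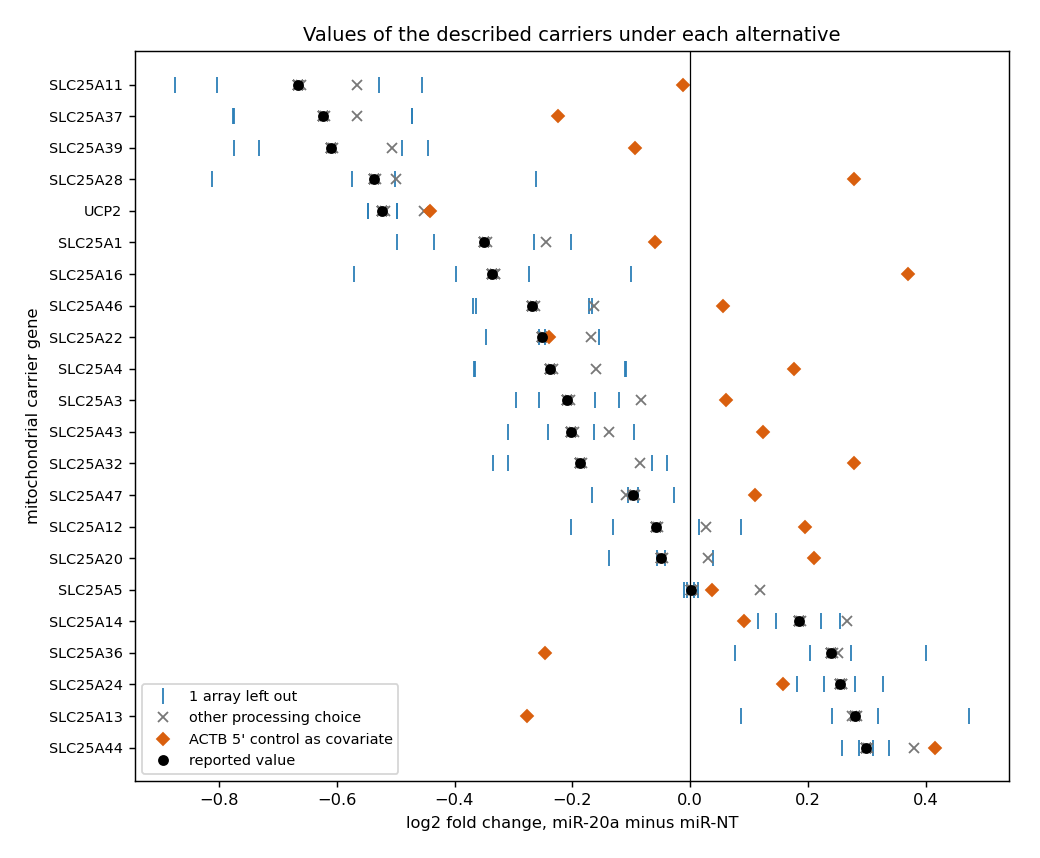
For each described carrier, the black point is the reported log2 fold change (miR-20a minus miR-NT), blue ticks leave out 1 array each, grey crosses change another processing choice and orange diamonds use the ACTB 5′ control as a covariate. UCP2 ranged from −0.55 to −0.44 and SLC25A44 from 0.26 to 0.42, whereas SLC25A11 ranged from −0.87 to −0.01. The ends −0.44, 0.42 and −0.01 are those with the covariate, whose slope rests mostly on the difference within the miR-20a pair.

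Signal level was weakly related to the difference. Over the 37 carriers, mean signal and log2 fold change correlated with Pearson's r = −0.232 and Spearman's rho = −0.273, and over all 12401 genes −0.182 and −0.212. The 19 carriers with a mean of 8.40 or more had a median of −0.06, with 12 of 19 below 0, beside −0.08 over the 4049 genes as bright, of which 66.2% were below 0. The 18 dimmer carriers had a median of 0.003, with 9 of 18 below 0, beside 0.02 over the other tested genes.

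Promoter windows of 4 carriers are shown because these genes were among those with the largest or steadiest differences: SLC25A11, SLC25A39 and UCP2 on the lower side and SLC25A44 on the higher. Each is the 250 bases before the RefSeq transcription start on GRCh38.p14, 5′ to 3′ on the gene's strand. The windows are SLC25A11 at chr17:4940047-4940296 (minus strand), SLC25A39 at chr17:44324824-44325073 (minus), UCP2 at chr11:73982844-73983093 (minus) and SLC25A44 at chr1:156193854-156194103 (plus). Capitals mark matches on either strand to any of 3 motifs: GGGCGG, the GC box bound by SP1, CCGGAAG of ETS factors such as GABPA, and AAGGTCA, the half-site of estrogen-related receptors; GABPA and these receptors are known regulators of mitochondrial genes. The motifs do not overlap one another in these windows.

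SLC25A11: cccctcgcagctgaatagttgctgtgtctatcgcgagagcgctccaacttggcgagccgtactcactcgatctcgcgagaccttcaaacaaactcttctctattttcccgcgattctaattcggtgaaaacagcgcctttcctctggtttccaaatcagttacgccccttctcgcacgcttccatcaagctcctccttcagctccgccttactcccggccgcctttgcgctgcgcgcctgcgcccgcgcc
SLC25A39: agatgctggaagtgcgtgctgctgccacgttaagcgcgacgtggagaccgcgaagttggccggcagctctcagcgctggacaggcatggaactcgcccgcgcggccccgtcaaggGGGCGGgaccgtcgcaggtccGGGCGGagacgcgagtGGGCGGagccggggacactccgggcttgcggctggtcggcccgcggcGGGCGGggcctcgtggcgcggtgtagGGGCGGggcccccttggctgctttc
UCP2: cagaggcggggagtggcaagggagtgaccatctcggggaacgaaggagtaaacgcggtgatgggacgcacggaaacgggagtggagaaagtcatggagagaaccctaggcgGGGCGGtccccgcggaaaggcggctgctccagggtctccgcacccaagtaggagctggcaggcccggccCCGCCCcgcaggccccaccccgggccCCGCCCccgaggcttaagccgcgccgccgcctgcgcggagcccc
SLC25A44: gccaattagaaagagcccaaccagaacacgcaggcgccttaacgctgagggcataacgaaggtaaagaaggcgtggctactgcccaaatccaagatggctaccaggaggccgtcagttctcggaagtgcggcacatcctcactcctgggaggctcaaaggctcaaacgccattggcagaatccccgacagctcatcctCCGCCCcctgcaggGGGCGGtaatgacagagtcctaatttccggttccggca

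All capitals in these windows are GC boxes, 5 in SLC25A39, 3 in UCP2 and 2 in SLC25A44, and the window of SLC25A11 holds none of the 3 motifs. SLC25A39 and UCP2 windows are 74% and 72% G and C, those of SLC25A11 and SLC25A44 57.6% each. RefSeq windows matched 40 of the 47 carriers. GC boxes occurred in 26 of these 40 (65%), beside 41.6% of 27305 windows of all genes, coding and noncoding. CCGGAAG occurred in 8 of 40 (20%), beside 8.78%, among them SLC25A4, SLC25A14, SLC25A20 and SLC25A46. AAGGTCA occurred in 1 (2.5%), SLC25A34, beside 3.51%. Among tested carriers below 0, 12 of 18 windows held a GC box, beside 22 of 31 of all tested carriers with a window.

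Proteins that bring carriers into the inner membrane did not share a direction. Of 12 tested subunits of the translocases, 5 were below 0 and 7 above, with a median of 0.05, and none passed over all genes. TOMM22, the central receptor of the outer-membrane translocase, stood at 9.18 and 9.01 on the control arrays and at 8.69 and 8.44 on those of miR-20a (limma adjusted p = 0.119). TOMM20, another receptor, gave values of 9.90 and 9.75 under miR-NT and of 9.69 and 9.30 under miR-20a (adjusted p = 0.266), while TIMM10B of the small TIM chaperones was the higher one with miR-20a, at 8.87 and 8.88 against 8.75 and 8.62 (adjusted p = 0.335).

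Mitochondrial transporters outside the family showed 10 of 17 tested members below 0, beside 53.8% of all genes. Their median was −0.08, and none passed. VDAC1, the main channel of the outer membrane, read 12.10 and 12.06 on the miR-NT arrays and 11.89 and 11.40 on the miR-20a arrays (limma adjusted p = 0.216). VDAC3, its relative, stood at 10.70 and 10.51 on the control arrays and at 10.39 and 10.00 on those of miR-20a (adjusted p = 0.216). SLC8B1, the sodium-calcium exchanger of the inner membrane, gave values of 6.63 and 6.25 under miR-NT and of 6.15 and 5.81 under miR-20a (adjusted p = 0.214). All 3 were lower in both miR-20a arrays, and lowest on replicate 2, but they were picked as the smallest p of this list. Of its 17 tested members, 7 were lower and 4 higher without overlap of the groups, beside 31.1% and 25.1% of all genes. Regulators of mitochondrial biogenesis were divided 5 and 5 around a median of 0.02, with limma adjusted p of 0.376 or more; PPARGC1A, the coactivator that drives this program, read 6.48 and 6.31 on the miR-NT arrays and 6.30 and 6.16 on the miR-20a arrays.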

How the data were processed

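Per the labels' protocols, 6 ug of column-purified total RNA was labelled as biotinylated cRNA for Affymetrix arrays. The authors deposited 1 log2 expression value for each of 20323 probe sets on each array; the log2 scale was judged from the range, and affy, an R package, is named in the submitters' processing notes. How probes were summarised and normalized, and how probe sets were chosen, is not stated in the sources at hand. The platform annotation gave 18062 probe sets 1 symbol, 886 several and 1375 none; symbols were updated through RefSeq gene identifiers (18036 matched). Each of 17716 genes was represented by its brightest probe set, and the 5315 dimmest genes were set aside.

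limma 3.58.1 (R 4.3.3) was run with lmFit and eBayes on the remaining 12401 genes, as a two-sided test of miR-20a minus miR-NT without covariates, with p-values adjusted by Benjamini-Hochberg and called under 0.05. The fit had 2 residual and 5.53 prior degrees of freedom and was tested on simulated data. The number of arrays, 2 a group, limits the precision. Members, substrate groups and lists were chosen with earlier results of these data known. Values per array are given for 9 carriers fixed by name, the 3 smallest p in each substrate group, the 5 highest and 5 lowest fold changes, and up to 3 members of each other list; other carriers' values, the promoter windows, motifs and within-array contrasts were chosen after values were seen. Besides the motifs reported, one of NRF1 was searched in the promoter windows; it was taken out after its result was seen and is not reported here. Values were recomputed after quantile normalization or median centring, with no filter or with the dimmest 50% removed, with a trended robust prior, with probe sets of a gene averaged, with replicate number as a block, with the ACTB 5′ control as a covariate, and without each array.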

Additional observations from a re-analysis of the deposited data

How the results depend on the processing

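The family's median log2 fold change of −0.04 was 0.034 after quantile normalization and 0.061 with the ACTB 5′ covariate, where the medians of all genes were 0.03 and 0.05, and ranged from −0.11 to −0.010 with an array left out. The count of carriers past the threshold ranged from 0 to 9 with an array left out and was 0 otherwise. All genes past it numbered 5 after quantile normalization, 47 after median centring, 4 with the dimmest 50% left out, 24 with the trend and robust prior, 6 with the covariate and 0 to 1869 with an array left out. The labels do not say that a replicate number marks a shared culture; same-numbered arrays deviated from their group means with r = 0.267 over genes, and with the replicate number as a block 0 carriers and 0 genes passed. The carboxylate median was −0.049 without a filter and 0.034 with the covariate, that of amino acid carriers 0.0097 with the dimmest 50% left out and −0.021 with the covariate, that of nucleotide and cofactor carriers 0.064 after quantile normalization and 0.20 with the covariate, that of adenine nucleotide and phosphate carriers 0.092 after quantile normalization and −0.10 with the dimmest 50% left out, that of uncoupling proteins −0.093 after quantile normalization and 0.17 without a filter, that of glutathione and iron carriers −0.10 and that of the remaining carriers 0.11 with the covariate. With an array left out, medians ranged from −0.081 to 0.040 (adenine nucleotides and phosphate), −0.32 to −0.12 (carboxylates), −0.035 to 0.042 (nucleotides and cofactors), −0.22 to −0.12 (uncoupling proteins), 0.035 to 0.12 (amino acids), −0.77 to −0.35 (glutathione and iron) and −0.17 to −0.063 (remaining carriers). Signs turned after quantile normalization for SLC25A12 (0.027) and SLC25A20 (0.031). They turned with the covariate for SLC25A3 (0.061), SLC25A4 (0.18), SLC25A12 (0.20), SLC25A13 (−0.28), SLC25A16 (0.37), SLC25A20 (0.21), SLC25A28 (0.28), SLC25A32 (0.28), SLC25A36 (−0.25), SLC25A43 (0.12), SLC25A46 (0.055) and SLC25A47 (0.11). With an array left out they turned for SLC25A5 (−0.011 to 0.013), SLC25A12 (−0.20 to 0.087) and SLC25A20 (−0.14 to 0.039). Of 22 described carriers 9 kept their sign under all alternatives. The cause of these shifts was not tested.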

Other observations

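Transcripts that carry a carrier's name but encode none were also measured. SLC25A3P1, a pseudogene of the phosphate carrier, stood at 6.16 and 6.02 on the control arrays and at 6.26 and 6.34 on those of miR-20a, whereas SLC25A3 itself was lower with miR-20a. Neither difference passed over all genes (0.21 and −0.21, limma adjusted p = 0.308 and 0.322). SLC25A25-AS1, antisense to the calcium-regulated carrier SLC25A25, gave values of 6.80 and 6.80 under miR-NT and of 6.65 and 7.09 under miR-20a. SLC25A48-AS1 read 6.11 and 6.47 on the miR-NT arrays and 6.09 and 6.50 on the miR-20a arrays, with the replicates of each group further apart than the groups.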
